A study of Arabidopsis thaliana with 9 samples.

Results

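Genes of the circadian clock's output were followed in rosette leaves of *Arabidopsis thaliana*, wild type of the Columbia ecotype: the glycine-rich RNA-binding protein genes *GRP7* and *GRP8*, the CYCLING DOF FACTOR genes *CDF1*, *CDF2*, *CDF3* and *CDF5*, and the CONSTANS-LIKE genes *COL1* and *COL2*. These 8 genes were taken by name and locus, with earlier results of these data known, out of 37363 genes whose level was deposited as TPM (a share of the library's transcripts, corrected for gene length). Plants grew weed-free for 3 weeks in a 12-hour photoperiod. For 1 more week they received biological low R:FR (W, a red to far-red ratio of 0.3 from light reflected by a surrogate weed, a grass), artificial low R:FR (FR, also 0.3, from far-red LEDs) or stayed weed-free (WF, a ratio of 1.4 in the sample labels). The study's text gives a somewhat higher ratio for the weed-free plants than the labels do. All plants were 4 weeks old and carried no transgene or mutation named in the labels. Each group had 3 libraries, numbered 1 to 3, and each library pooled rosette leaves of 3 plants, so the spread between libraries is a spread between pools. W and FR plants grew in separate chambers. The paper also describes an opaque divider between WF and W plants, and does not name the chamber of each library. Between W and FR an effect of the chamber cannot be told apart from that of the light. The same holds for FR against WF if the WF plants shared the chamber of W. For W against WF a chamber effect was not tested. The hour of harvest is not given in the sources used here.

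The circadian clock is a loop of transcription factors that repress each other at different times of day. The Myb factors CCA1 and LHY are most abundant around dawn and repress evening genes such as *TOC1*, *GI* and *ELF4* through a short DNA motif called the evening element. Output genes carry the rhythm into physiology. GRP7 and GRP8 bind RNA, are rhythmic with a peak toward the evening, and limit their own transcripts through alternative splicing. The CDF proteins are DOF-type transcription factors that repress the flowering genes *CO* and *FT* early in the day and are removed by FKF1 together with GI. COL1 and COL2 are B-box proteins, the closest relatives of CO, and their transcripts are rhythmic with a peak near dawn.

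The libraries differed in a way that touches every result below. In FR, replicates 1 and 2 were close to each other in all members detected, while replicate 3 lay nearer to the other groups in every one of them except *CDF5*. The counts of genes called in TPM are therefore given with and without replicate 3 of all groups. Replicate 3 was singled out because of these same values, and leaving it out narrows the spread. Small p-values without it are no separate support for a difference. The 4 leaf mesophyll markers were all detected, which fits the labelled tissue, and their summed level was 31590 to 34311 TPM in W and 57309 to 69444 TPM in FR, against 40352 to 51763 TPM in WF. The 4 guard cell and epidermis markers together were at 29.3 to 40.5 TPM in W and 22.9 to 26.0 TPM in FR, against 28.2 to 31.7 TPM in WF, and flower and root markers stayed under 1 TPM in sum. The part of these differences in the results was not tested. In RNA from whole leaves, fewer cells of a type and less RNA per cell cannot be told apart.

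*GRP7* (AT2G21660, TAIR10.1 chromosome 2, 9265084 to 9266557, minus strand) was the most abundant member, with a mean of 3704 TPM over the 9 libraries. It was at 5258, 4896 and 7027 TPM in W libraries 1, 2 and 3 and at 97.6, 90.9 and 2473 TPM in FR, against 3491, 3495 and 6508 TPM in WF. The 3 FR libraries lay below all others, 2 of them by more than an order of magnitude, whereas the W and WF libraries overlapped. Within FR, replicate 3 was 26.2 times the mean of the other two libraries, a ratio that was 1.38 in W and 1.86 in WF.

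*GRP8* (AT4G39260, chromosome 4, 18273829 to 18275216, minus strand; named *CCR1* in the annotation) encodes the closest relative of GRP7. It was at 918, 960 and 932 TPM in W and at 189, 182 and 691 TPM in FR, against 807, 776 and 1162 TPM in WF. Again all 3 FR libraries were the lowest, with replicate 3 between the other 2 of its group and the rest. The ratio of *GRP7* to *GRP8* TPM was itself 5.73, 5.10 and 7.54 in W and 0.517, 0.50 and 3.58 in FR, against 4.33, 4.50 and 5.60 in WF. *GRP7* thus differed more than its relative did, although the exact permutation test of the log2 ratio, 3 libraries against 3, cannot go below its p of 0.1 for FR against WF. How reads shared by these similar genes were assigned is not given in the sources used here, and their split is uncertain to that extent.

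The 150 bases before the annotated start of both genes are shown because they hold the evening element, AAAATATCT on either strand, printed in capitals. They were read from RefSeq's TAIR10.1 assembly on the strand of the gene, with *GRP7* at chr2:9266558-9266707 and *GRP8* at chr4:18275217-18275366, both minus strand.
GRP7: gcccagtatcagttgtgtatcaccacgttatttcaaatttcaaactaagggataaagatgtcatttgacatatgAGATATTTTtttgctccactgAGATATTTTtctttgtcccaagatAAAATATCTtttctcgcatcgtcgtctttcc
GRP8: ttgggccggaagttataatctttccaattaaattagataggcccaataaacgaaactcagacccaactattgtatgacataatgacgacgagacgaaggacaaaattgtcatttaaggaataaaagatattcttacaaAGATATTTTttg
*GRP7* held 3 evening elements, at 76 to 68, 55 to 47 and 31 to 23 bases before the start, and *GRP8* held 1, at 12 to 4 bases. Over windows of 300 bases before the start, 2.79% of 27443 promoters held an evening element. Among the other members *COL2* held 1, at 189 to 181 bases, while *CDF1*, *CDF2*, *CDF3*, *CDF5* and *COL1* held none. Another motif bound by CCA1, AAAAATCT, was found in *CDF5* alone, at 200 to 193 bases, and in 7.94% of promoters. The G-box CACGTG, read by bHLH and bZIP factors, was found in *CDF2* alone, at 77 to 72 bases, and in 7.09% of promoters. No match overlapped another. The sites of *COL2* (chr3:489633-489671), *CDF5* (chr1:26163893-26163930) and *CDF2* (chr5:15878606-15878641) are shown with 15 bases on each side, to set them beside those of *GRP7* and *GRP8*.
COL2: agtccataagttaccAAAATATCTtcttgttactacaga
CDF5: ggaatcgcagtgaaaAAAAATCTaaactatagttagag
CDF2: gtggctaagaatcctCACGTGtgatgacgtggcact
The *COL2* and *CDF5* sites are on the minus strand, as the genes are, and the *CDF2* site is on the plus strand. These matches describe the sequence and do not show that a factor was bound.

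*CDF1* (AT5G62430, chromosome 5, 25069093 to 25071111, minus strand), whose protein represses *CO*, was highest in the group where *GRP7* was lowest. It was at 23.6, 21.3 and 19.1 TPM in W and at 52.6, 55.8 and 27.8 TPM in FR, against 24.9, 23.3 and 16.5 TPM in WF. All FR libraries were the highest, and replicate 3 was again the nearest to the other groups, at 0.514 times the mean of the other two.

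*CDF3* (AT3G47500, chromosome 3, 17503883 to 17506124, minus strand), a relative of CDF1 that also acts in cold and drought tolerance, was the most abundant of the CDF genes. It was at 58.9, 53.7 and 44.2 TPM in W and at 99.2, 91.3 and 66.0 TPM in FR, against 59.5, 57.4 and 47.8 TPM in WF. The FR libraries were above all others. In each of the 3 groups replicate 3 was the lowest library, for *CDF3* as for *CDF1*.

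*CDF2* (AT5G39660, chromosome 5, 15878698 to 15881537, plus strand), which acts redundantly with CDF1, was at 2.36, 1.69 and 2.07 TPM in W and at 4.44, 5.20 and 2.12 TPM in FR, against 1.19, 1.93 and 1.41 TPM in WF. At these low levels the FR libraries lay above those of WF but overlapped those of W.

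*CDF5* (AT1G69570, chromosome 1, 26161528 to 26163715, minus strand) went with *GRP7* and *GRP8* and not with the other CDF genes. It was at 15.3, 14.0 and 16.6 TPM in W and at 7.23, 7.85 and 6.86 TPM in FR, against 9.15, 9.50 and 15.2 TPM in WF. The FR libraries were the lowest and close together, replicate 3 included. The WF library that stood apart was replicate 3, at 1.63 times the mean of the other two. These levels are less certain than those of *CDF1* to *CDF3*, because 1154 of its 1928 exon bases (59.9%) are shared with a long noncoding RNA gene on the opposite strand, AT1G69572.

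*COL2* (AT3G02380, chromosome 3, 487069 to 489467, minus strand) was at 7.47, 5.81 and 5.63 TPM in W and at 33.5, 38.2 and 6.91 TPM in FR, against 4.50, 5.33 and 4.50 TPM in WF. It was the member in which FR was furthest above WF. Replicate 3 of FR, at 0.193 times the mean of the other two, lay within the range of W.

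*COL1* (AT5G15850, chromosome 5, 5176091 to 5177897, minus strand) was listed at 0 TPM in all 9 libraries, so nothing could be compared for it on this scale. All 1698 of its exon bases lie within the long noncoding RNA gene AT5G15845 on the opposite strand. That gene was at 9.11, 6.90 and 3.17 TPM in W and at 19.8, 25.8 and 8.35 TPM in FR, against 5.03, 6.96 and 2.84 TPM in WF. A value of 0 TPM where both genes share every base of *COL1* does not show that *COL1* was silent.

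**Figure D1:**
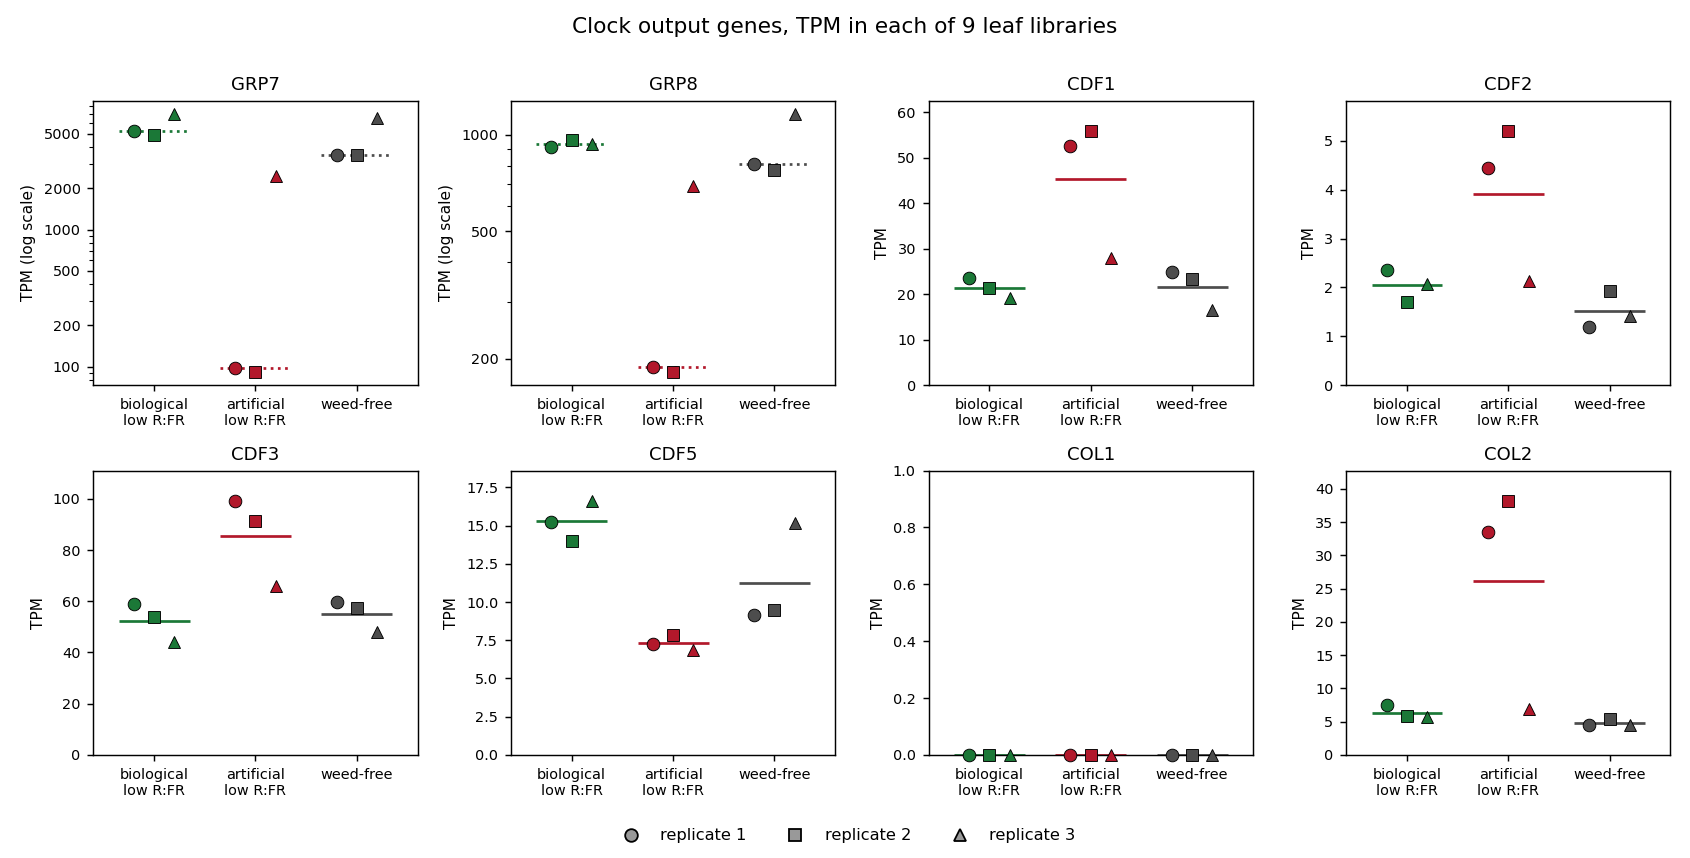
Each panel plots 1 gene, with TPM on the vertical axis (log scale for GRP7 and GRP8, linear from 0 for the others) and biological low R:FR (W), artificial low R:FR (FR) and weed-free (WF) on the horizontal axis. Symbols are the libraries by replicate number, solid lines are group means and dotted lines on log axes are group medians. In FR, replicates 1 and 2 sit together and apart from the other groups (97.6 and 90.9 TPM for GRP7, 33.5 and 38.2 TPM for COL2), with replicate 3 between (2473 TPM) or beside the others (6.91 TPM). COL1 is at 0 throughout.

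The first comparison asks whether output genes differed between plants beside the grass and WF plants. No member did so by the test used. Of the 7 members with at least 1 TPM in at least 3 libraries (*COL1* did not pass), 0 were called in W against WF with limma (adjusted over 17784 genes, threshold 0.05), where 9.57% of all genes tested were called. At an unadjusted p under 0.05 there was 1, *CDF5*, with a log2 fold change of 0.44 ± 0.17 (SE) on the log2(TPM + 1) scale and adjusted p = 0.121. *GRP7* averaged 5727 ± 1140 TPM in W and 4498 ± 1741 TPM in WF (SD, n = 3 each), a log2 fold change of 0.40 whose 95% interval ran from -2.69 to 3.49. *GRP8*, at 0.06 (-1.08 to 1.19), and *COL2*, at 0.33 (-0.99 to 1.65), had wide intervals too. Those of *CDF1* (0.0011, from -0.55 to 0.55), *CDF2* (0.28, from -0.23 to 0.79) and *CDF3* (-0.07, from -0.44 to 0.30) were narrower. The spread behind these intervals is estimated over all groups, and without replicate 3 the SE of *GRP7* was 0.097, against 1.28 with all libraries. *COL2* was the member whose libraries did not overlap, with all 3 higher in W, as were 19% of all genes tested, and 0 members were lower without overlap, as 10.7% of all genes were. Without replicate 3 of any group, *GRP7* was higher by 0.54 ± 0.10 (adjusted p = 0.00887) and *CDF5* by 0.60 ± 0.11 (adjusted p = 0.00948) in W than in WF with limma, where 29.1% of all genes were called.

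The second comparison sets plants under far-red LEDs against WF plants. In FR *GRP7*, *GRP8* and *CDF5* were lower in all 3 libraries than in any WF library, as 14.4% of all genes were, and *CDF1*, *CDF2*, *CDF3* and *COL2* were higher in all 3, as 13.6% of all genes were. None of the 7 passed the limma test over all genes (0 called, background 3.77%), although all 7 had an unadjusted p under 0.05. The exact permutation test, two-sided, gave p = 0.1 for each of the 7, the smallest that 3 libraries against 3 allow. The log2 fold changes were -3.93 ± 1.28 for *GRP7* (adjusted p = 0.152), -1.64 ± 0.49 for *GRP8* (adjusted p = 0.111) and -0.53 ± 0.17 for *CDF5* (adjusted p = 0.108). For the genes that were higher they were 1.93 ± 0.56 for *COL2* (adjusted p = 0.109), 1.00 ± 0.25 for *CDF1* (adjusted p = 0.0539), 0.92 ± 0.23 for *CDF2* (adjusted p = 0.0525) and 0.61 ± 0.17 for *CDF3* (adjusted p = 0.0674). In the deposited normalized counts *CDF1* was instead lower in FR than in WF (-1.21, adjusted p = 0.00707, limma). So were *CDF3* (-0.35, adjusted p = 0.446) and *COL2* (-0.32, adjusted p = 0.327), and the direction of these genes is therefore not settled. Across genes the counts and TPM of a library were hardly correlated (Spearman 0.0536 to 0.119), as described further below. Which of the 2 scales follows these transcripts was not tested.

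Libraries of the same number in FR and WF deviated from their group means together, but weakly (correlation over all genes tested 0.166 to 0.307). With replicate number as a block in the limma fit, *CDF1* (adjusted p = 0.00532), *CDF3* (adjusted p = 0.00871), *CDF2* (adjusted p = 0.0367) and *GRP8* (adjusted p = 0.0383) passed, that is 3 higher and 1 lower among 7, where 8.25% of all genes were called. *GRP7* (adjusted p = 0.102), *COL2* (adjusted p = 0.0727) and *CDF5* (adjusted p = 0.0752) did not. Without replicate 3, 6 of the 7 passed, 4 higher and 2 lower, where 17.3% of all genes were called, and *CDF5* did not (adjusted p = 0.141). *GRP7* was then lower by a factor of 36.7 (log2 fold change -5.20 ± 0.10, adjusted p = 2.31e-07) and *COL2* higher by a factor of 6.23 (2.64 ± 0.15, adjusted p = 2.44e-05). With all libraries the SE of *GRP7* was 1.28, so these small limma p-values rest on leaving out the library that stood apart. By numbered pair, *GRP7* was 35.8-, 38.4- and 2.63-fold lower in FR than in WF, and *COL2* was 7.44-, 7.16- and 1.54-fold higher. For *CDF3* the 3 pairs were more alike, at 1.67-, 1.59- and 1.38-fold higher. In TPM the FR and WF libraries did not overlap for any of the 7, so every way of pairing them gives the same direction. The size in *GRP7* and *COL2* was set by replicates 1 and 2.

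The third comparison sets the grass against the LEDs at the same nominal ratio of 0.3. In W *GRP7*, *GRP8* and *CDF5* were higher and *CDF1*, *CDF2* and *CDF3* were lower than in FR, so that 6 of 7 members passed the limma test on TPM. In the deposited normalized counts *CDF1* was instead higher in W (log2 fold change 1.51, adjusted p = 0.000142, limma), as was *COL2* (0.90, adjusted p = 0.000832), and *CDF3* was at 0.42 (adjusted p = 0.191). The weak correlation of these counts with TPM across genes applies here too. The background of this comparison was high, with 37.4% of all genes called (23.8% higher and 13.6% lower). *GRP7* averaged 5727 ± 1140 TPM in W and 887 ± 1374 TPM in FR (SD, n = 3 each; log2 fold change 4.33 ± 1.28, adjusted p = 0.0401). *GRP8* averaged 937 ± 21.5 TPM in W and 354 ± 292 TPM in FR (1.70 ± 0.49, adjusted p = 0.0296). *CDF5* averaged 15.3 ± 1.32 TPM in W and 7.31 ± 0.497 TPM in FR (0.97 ± 0.17, adjusted p = 0.00197), a difference well beyond the spread of either group. *CDF1* averaged 21.3 ± 2.25 TPM in W and 45.4 ± 15.3 TPM in FR (-0.997 ± 0.25, adjusted p = 0.0116), and *CDF3* averaged 52.3 ± 7.49 TPM in W and 85.5 ± 17.3 TPM in FR (-0.69 ± 0.17, adjusted p = 0.00951). *CDF2* was just past the threshold (-0.64 ± 0.23, adjusted p = 0.0492) with overlapping libraries. *COL2* was not past it (-1.60 ± 0.56, adjusted p = 0.0594). Without overlap between libraries, 3 members were higher in W than in FR (*GRP7*, *GRP8* and *CDF5*), as 35.2% of all genes were, and 2 were lower (*CDF1* and *CDF3*), as 17.9% were.

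Most of these calls leaned on replicates 1 and 2 of FR. With replicate 3 alone in that group, a setting chosen after the data were seen, *CDF5* was the 1 member still called, where 5.59% of all genes were. *GRP7* was then at a log2 fold change of 1.19 (adjusted p = 0.0744), *GRP8* at 0.44 (adjusted p = 0.295), *CDF1* at -0.37 (adjusted p = 0.364), *CDF3* at -0.34 (adjusted p = 0.358) and *CDF2* at -0.04 (adjusted p = 0.933), with limma and the lone library assumed to vary like the rest. Leaving out any 1 of the W libraries, or replicate 1 or 2 of FR, left 3 of 7 called: *CDF5*, *CDF1* and *CDF3*. The share of all genes called was then 23.7%, 36% and 33.2% without W replicate 1, 2 or 3, and 21% and 24% without FR replicate 1 or 2. Without replicate number 1 or 2 in all groups 1 member was called, *CDF5*, where 7.13% and 14.2% of all genes were. In all of these settings the exon bases that *CDF5* shares with AT1G69572 were left in. Without replicate 3 in all groups all 7 were called, where 45.5% of all genes were, and *GRP7* was 53.3-fold higher in W than in FR (5.74 ± 0.10, adjusted p = 1.11e-07). With the replicate block, 7 members were called in W against FR, where 42.2% of all genes were, and 0 in W against WF, where 12.8% were. The comparisons of W and of FR with WF share the 3 WF libraries.

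**Figure D2:**
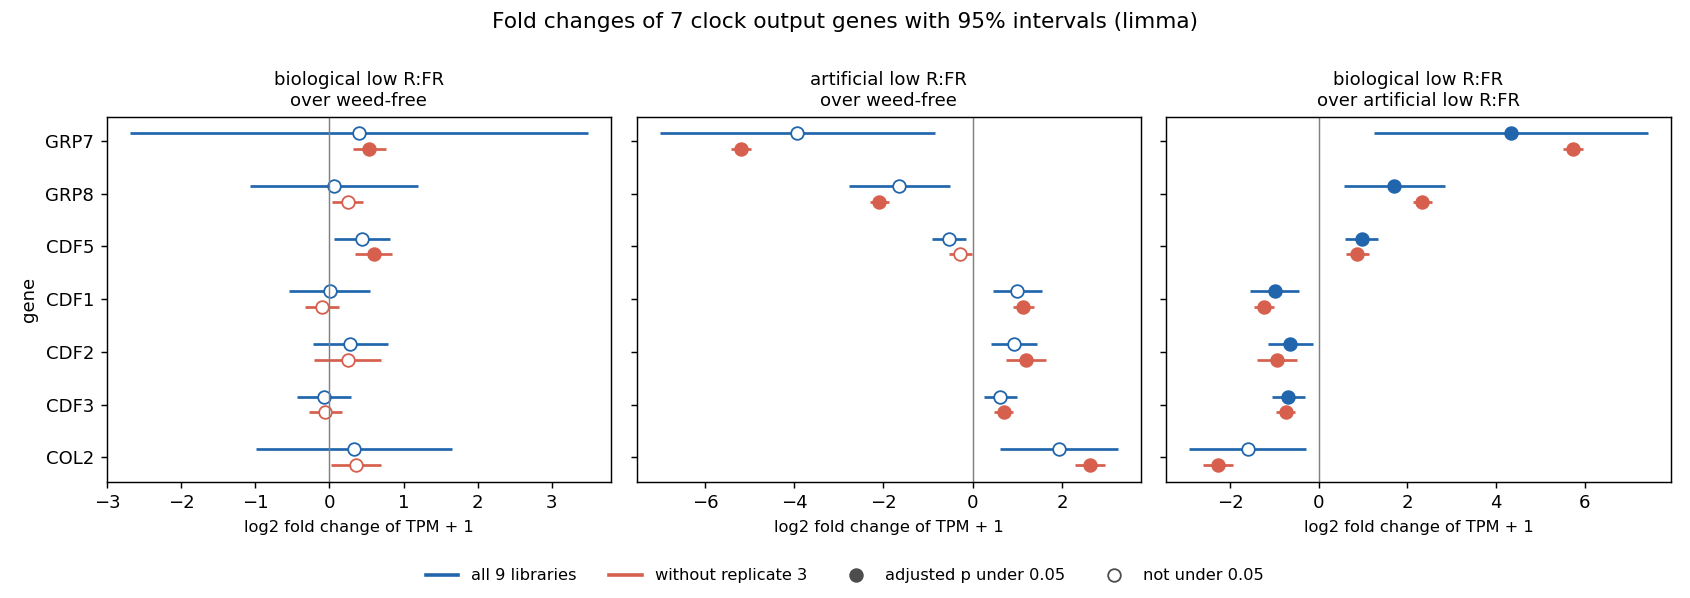
Points are log2 fold changes of TPM + 1 for 7 genes in the 3 comparisons, 1 panel each, and lines are 95% intervals from limma. Blue uses all 9 libraries and red leaves replicate 3 out of every group. Filled points have an adjusted p under 0.05. The intervals shrink without replicate 3, and GRP7 in FR over WF moves to -5.20 from -3.93.

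The clock genes themselves stood apart in the same libraries. *CCA1*, which is highest at dawn, was at 5.24, 3.61 and 1.47 TPM in W and at 37.0, 40.9 and 8.21 TPM in FR, against 4.12, 4.55 and 1.27 TPM in WF. *LHY*, its close relative, was at 1.41, 0.870 and 0.648 TPM in W and at 7.58, 8.86 and 1.13 TPM in FR, against 0.665, 0.704 and 0.444 TPM in WF. Both Myb genes were thus highest where *GRP7* was lowest. *TOC1*, an evening repressor, was at 53.4, 38.1 and 81.4 TPM in W and at 3.74, 3.57 and 16.3 TPM in FR, against 22.2, 24.2 and 71.6 TPM in WF. *GI*, which holds FKF1 to the CDF proteins, was at 26.5, 24.1 and 29.9 TPM in W and at 3.58, 3.66 and 16.7 TPM in FR, against 20.9, 19.8 and 30.8 TPM in WF. *FKF1*, the light-sensing ubiquitin ligase subunit that targets CDF proteins, was at 77.7, 66.1 and 96.8 TPM in W and at 0.102, 0.0575 and 23.5 TPM in FR, against 46.3, 42.7 and 90.8 TPM in WF. In replicates 1 and 2 of FR *CCA1* and *LHY* were higher, and *TOC1*, *GI* and *FKF1* lower, than in the other 7 libraries, and *CDF1*, *CDF2*, *CDF3* and *COL2* were highest in the same 2 libraries.

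Of 24 clock genes listed, 23 were tested. In FR against WF 0 passed (background 3.77%), and before adjustment 9 lay higher and 7 lower with a p under 0.05. With the replicate block 8 were higher and 7 lower, where 8.25% of all genes were called in either direction. Their median log2 fold change was -0.20, against -0.04 over all genes tested. The log2 fold change of *CCA1* was 2.61 ± 0.69 (adjusted p = 0.0934 without and 0.000491 with the block, limma) and that of *TOC1* was -2.27 ± 0.68 (adjusted p = 0.123 without and 0.000920 with it). The block also brought *LHY* (1.82 ± 0.53, adjusted p = 0.108 without and 0.0397 with it) and *GI* (-1.75 ± 0.50, adjusted p = 0.104 without and 0.0272 with it) past the threshold. It did not do so for *FKF1*, which is listed with the photoperiod partners (-4.23 ± 1.23, adjusted p = 0.123 without and 0.0799 with it). In W against FR 8 were higher and 4 lower, where 37.4% of all genes were called. The smallest adjusted p-values were those of *PRR7*, a daytime repressor (0.85 ± 0.22, adjusted p = 0.0142), *ELF3*, a subunit of the evening complex (2.07 ± 0.49, adjusted p = 0.0156), and *TOC1* (2.96 ± 0.68, adjusted p = 0.0158). The 4 that were lower were *CCA1*, *RVE8*, AT3G12320 and AT5G64170. In W against WF 1 of the 23 was higher, *LCL1* (a log2 fold change of 0.79), where 9.57% of all genes were called. Without replicate 3, 21 of the list were tested. Then 7 were higher and 0 lower in W than in WF (background 29.1%), 9 higher and 8 lower in FR than in WF (17.3%), and 10 higher and 8 lower in W than in FR (45.5%).

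**Figure D3:**
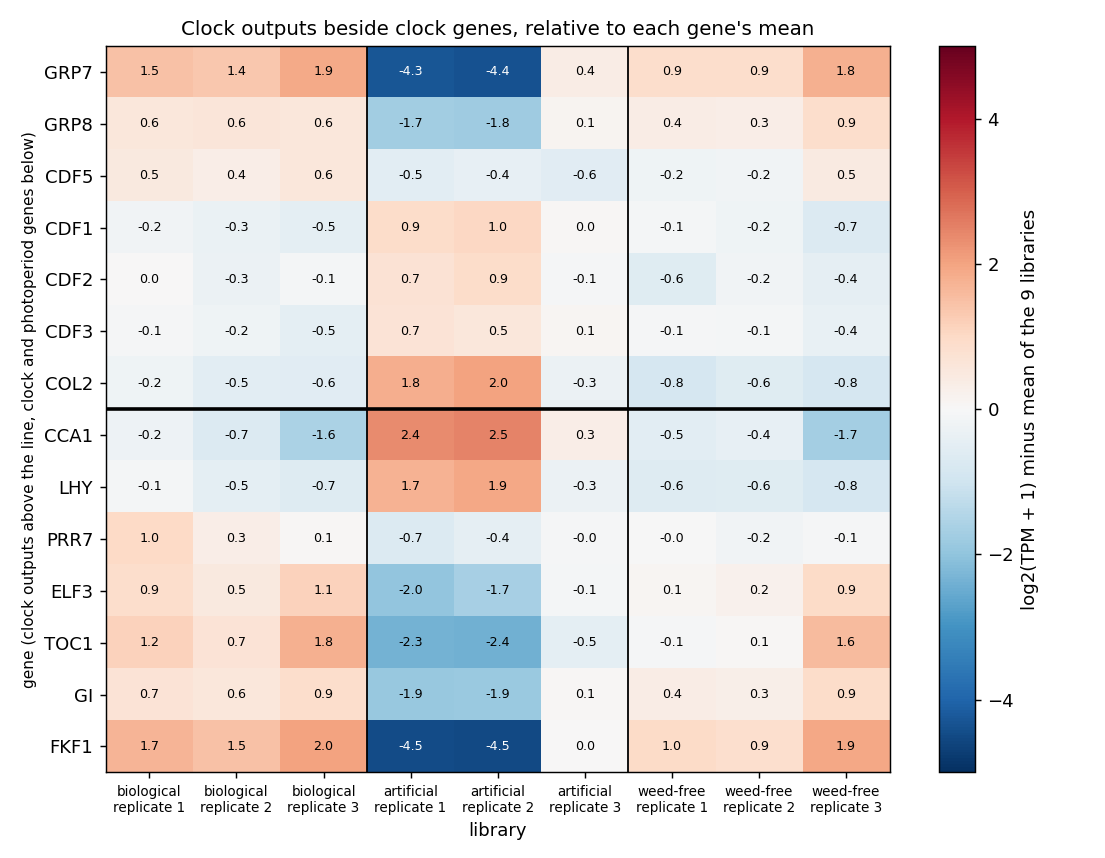
Rows are 7 clock outputs (above the line) and 7 clock or photoperiod genes (below), columns are the 9 libraries. Colour and printed number give log2(TPM + 1) minus the gene's mean over the 9 libraries. GRP7 and FKF1 are at -4.3 and -4.5 in replicate 1 of FR while CCA1 is at 2.4 there, and in replicate 3 of that group the same genes are at 0.4, 0.0 and 0.3.

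The flowering genes that CDF proteins repress had low levels in all groups. *CO* was at 0.433, 0.138 and 1.92 TPM in W and at 0.0939, 0.189 and 0.136 TPM in FR, against 0.195, 0.249 and 1.17 TPM in WF. *FT*, the mobile flowering signal, was at 0.251, 0.448 and 0.177 TPM in W and at 1.05, 1.18 and 0.883 TPM in FR, against 0.347, 0 and 0.274 TPM in WF. *FT* libraries of FR were above all others, but *CO* and *FT* did not pass the filter and were not tested. Of 9 partners listed 6 were tested. None was called in W or in FR against WF (backgrounds 9.57% and 3.77%), where 0 and 2 had an unadjusted p under 0.05. With the block 1, *GI*, was lower in FR than in WF (background 8.25%). Without replicate 3, 2 were higher in W than in WF (*FKF1* and *SOC1*, background 29.1%), 3 were lower in FR than in WF (*GI*, *FKF1* and *SOC1*, 17.3%) and 4 were higher in W than in FR (45.5%). In W against FR 3 were higher (background 23.8%): *FKF1* (4.72 ± 1.23, adjusted p = 0.0273), *GI* (1.94 ± 0.50, adjusted p = 0.0212) and *LKP2*, a relative of FKF1 (0.41 ± 0.12, adjusted p = 0.0212).

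The relatives of the members did not share 1 pattern. Of 14 other COL genes 12 were tested. *COL5* was at 227, 223 and 178 TPM in W and at 208, 220 and 210 TPM in FR, against 128, 129 and 97.7 TPM in WF. It was higher in both treatments than in WF (log2 fold change 0.83 ± 0.14 in W and 0.86 ± 0.14 in FR, both with adjusted p = 0.0102), with replicate 3 of FR beside replicates 1 and 2. *BBX17* (AT1G49130) was lower in FR than in WF (-0.71 ± 0.15, adjusted p = 0.0293). With all 9 libraries and no block the list had no further calls against WF (backgrounds 9.57% for W and 3.77% for FR). With the block, 2 were higher and 5 lower in FR than in WF (background 8.25%). Without replicate 3, 8 were higher and 0 lower in W than in WF (background 29.1%), and 2 were higher and 6 lower in FR than in WF (17.3%). In W against FR 6 were higher and 1, *BBX16*, lower (background 37.4%), among them *BBX17* (1.22 ± 0.15, adjusted p = 0.000415) and *BBX14* (AT1G68520, 1.24 ± 0.28, adjusted p = 0.00818). Without replicate 3 that comparison had 7 higher and 1 lower (45.5%).

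Of 6 other glycine-rich RNA-binding genes 5 were tested, and none was as abundant as *GRP8*. *GR-RBP6* was at 3.55, 2.84 and 4.13 TPM in W and at 6.55, 6.81 and 6.61 TPM in FR, against 3.71, 3.15 and 4.53 TPM in WF. It was thus higher in FR than in WF (0.68 ± 0.15, adjusted p = 0.034), where *GRP7* and *GRP8* had lower values in FR. With the block 1 of the list was higher and 1 lower in FR than in WF (background 8.25%). *GRP4* was lower in W than in WF (-0.55 ± 0.13, adjusted p = 0.0273), and 4 of the 5 were lower in W than in FR (background 13.6%), namely *GR-RBP6*, *GRP4*, *GR-RBP3* and *GR-RBP5*. Without replicate 3, 4 were lower in W than in WF (background 29.1%), 1 was higher and 1 lower in FR than in WF (17.3%), and 4 were again lower in W than in FR (45.5%). Of the other CDF genes, *CDF4* and *CDF6* stayed under the filter, and *COG1* was not called in any comparison (lowest adjusted p = 0.205, W against FR; backgrounds 9.57%, 3.77% and 37.4%).

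Among 7 other clock-controlled genes, *PIF4*, a growth-promoting bHLH factor, was at 160, 117 and 127 TPM in W and at 56.8, 58.8 and 64.1 TPM in FR, against 90.4, 93.2 and 98.0 TPM in WF. It was higher in W (0.50 ± 0.13, adjusted p = 0.0359) and lower in FR (-0.64 ± 0.13, adjusted p = 0.0258) than in WF, with replicate 3 of FR beside the other two. No other gene of this list was called against WF with all 9 libraries and no block (backgrounds 9.57% for W and 3.77% for FR). With the block 1 was higher and 4 lower in FR than in WF (background 8.25%). Without replicate 3, 4 were higher and 1 lower in W than in WF (background 29.1%), and 1 was higher and 5 lower in FR than in WF (17.3%). In W against FR 5 were higher and 1 lower, both with all libraries (background 37.4%) and without replicate 3 (45.5%). The lower one was *CAT2*, a morning catalase gene (-2.33 ± 0.49, adjusted p = 0.0102), and AT4G33980 was among those higher (4.40 ± 0.92, adjusted p = 0.0123).

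The pattern of each member over the 9 libraries was compared with that of the other genes among 7362 with a mean of at least 10 TPM, leaving out the members themselves, which are compared with each other at the end. The correlations below are of log2(TPM + 1) over 9 libraries that all genes share, and describe likeness only. *GRP7* was most like AT4G30650 and AT2G47890 (Pearson r = 0.998 for both), the latter being *COL13* of the other COL genes. *GRP8* was most like AT4G32340 and *SEX1*, a gene needed for starch breakdown (0.996 for both). *CDF1* was most like *CCA1* (0.991) and AT4G26860 (0.989). *CDF3* was most like AT4G26860 (0.990) and AT3G12320, which is *LNK3* of the clock genes (0.988). *CDF2* was most like the histone gene *HTA2* and the carotenoid hydroxylase gene *BETA-OHASE 1* (0.964 for both), and *COL2* was most like AT3G21390 and *BETA-OHASE 1* (0.98 for both). *CDF5* was most like *TIC*, a clock regulator (0.988), and *PUB13* (0.981). Among the members, *GRP7* and *GRP8* were the most alike (0.995), and *CDF2* was nearer to *COL2* (0.971) than to any of those other genes. *CDF5* was the one least tied to the rest. Its r was largest in size with *CDF3* (-0.799) and *CDF1* (-0.753), and was 0.702 with *GRP7*, -0.555 with *COL2* and -0.481 with *CDF2*.

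A table of normalized counts was also deposited, and it ordered the groups differently for some members. *CDF1* had 92.7, 107 and 81.8 normalized counts in W and 31.6, 26.0 and 40.0 in FR, against 70.2, 72.9 and 83.5 in WF. On this scale *CDF1* was lower in FR than in WF (limma, log2 fold change -1.21, adjusted p = 0.00707), whereas in TPM it was higher (1.00, adjusted p = 0.0539). *COL2* had 379, 325 and 304 normalized counts in W and 174, 181 and 180 in FR, against 187, 249 and 236 in WF, also the reverse of its TPM. *GRP7*, with 359, 406 and 422 normalized counts in W and 8.80, 9.76 and 166 in FR, against 340, 270 and 446 in WF, kept its order. *GRP8* and *CDF5* kept theirs too between FR and WF. With limma on normalized counts, 1 of 7 members tested (*COL1* in, *CDF2* out) was called in W against WF (background 4.58%), 2 in FR against WF (3.28%) and 5 in W against FR (25%). On whole reads recovered from the counts, a test chosen after the data were seen, edgeR called 0, 2 and 4 members in the same comparisons (backgrounds 4.36%, 3.72% and 27%) and DESeq2 called 1, 3 and 5 (backgrounds 4.63%, 4.32% and 23.2%).

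The tables differed in more than scale. The count table gave 247 whole reads for *GRP7* in replicate 1 of WF, where its mean coverage was 12699 reads per base. Within a library, counts and TPM had a Spearman correlation of 0.0536 to 0.119 across the 16587 genes present in both tables, which are not independent replicates. Of the 4 genes overlapping members on the opposite strand, AT3G02370 and AT1G69572 differed between the tables. AT5G15845, opposite *COL1*, did not change direction, with FR above WF by a log2 fold change of 1.61 in TPM (adjusted p = 0.120, limma) and 1.91 in normalized counts (adjusted p = 0.170, limma). AT3G02390, which shares 506 exon bases with *COL2*, stayed at or under 0.0405 TPM and 4.96 normalized counts. AT3G02370, which shares 212 exon bases with *COL2*, had 24.0, 33.3 and 21.5 normalized counts in W and 688, 741 and 79.0 in FR, against 49.5, 53.3 and 8.11 in WF, while its TPM was 8.01, 3.38 and 4.63 in W and 2.64, 3.17 and 2.94 in FR, against 2.46, 2.15 and 3.99 in WF. Its counts, and not its TPM, were high in the libraries where the TPM of *COL2* was high. AT1G69572, opposite *CDF5*, was listed at 0 TPM in all libraries but had 154, 176 and 189 normalized counts in W and 352, 383 and 162 in FR, against 113, 103 and 89.2 in WF. *CDF5* had 577, 606 and 680 normalized counts in W and 37.8, 32.5 and 205 in FR, against 399, 473 and 660 in WF. On counts, *CDF5* differed by a log2 fold change of -2.96 between FR and WF (adjusted p = 0.078, limma), against -0.53 in TPM, and AT1G69572 was higher by 1.46 (adjusted p = 0.00786). The strand setting of the counting is not given in the sources used here. Without it, reads of a gene and of its opposite partner cannot be told apart, and whether reads were counted for the opposite strand was not tested.

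**Figure D4:**
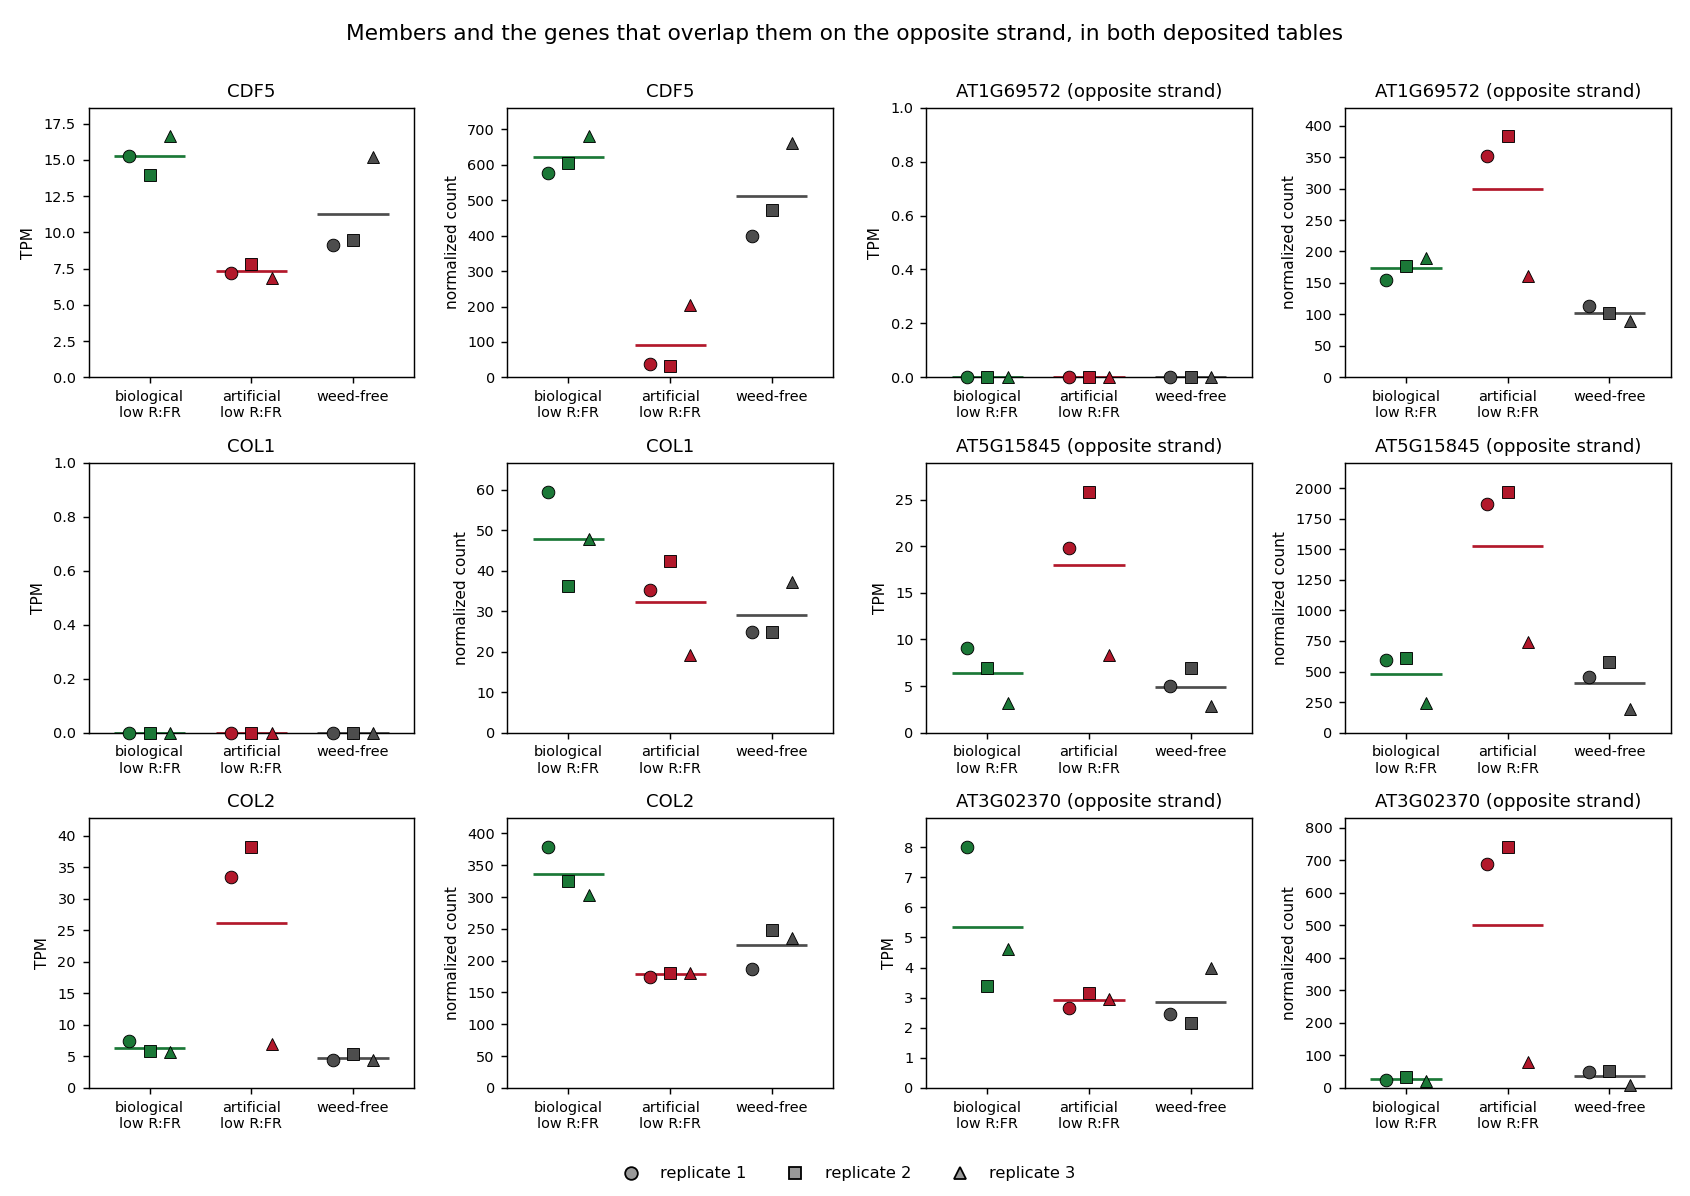
Each row shows a member (left 2 panels) and the gene overlapping it on the opposite strand (right 2 panels), in TPM and in normalized counts on vertical axes from 0. Symbols are libraries by replicate number and lines are group means. AT3G02370 reaches 741 normalized counts in FR at 3.17 TPM, and AT1G69572 has 383 normalized counts at 0 TPM.

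Whether libraries of the same number deviated together in the members was tested over all groups. None of the 7 passed the F test for replicate number in limma (0 called, background 0.59%), with adjusted p from 0.180 for *CDF3* to 0.669 for *CDF2*. Before adjustment *CDF3* (adjusted p = 0.180) and *CDF1* (adjusted p = 0.183) had a p under 0.05 in that limma test, and both had their lowest library of each group in replicate 3.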

How the data were processed

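Leaf RNA of 9 libraries (3 per group, samples pooled from 3 plants) was analysed from deposited tables. Per the labels and the methods, the authors aligned reads to TAIR10.1 with Bowtie2 2.4.3, counted them with HTSeq 0.13.5 and divided the counts by the size factor of each library from DESeq2 1.30.1. The program that made the tables of TPM, FPKM and coverage is not given in the sources used here. The deposited TPM values are scaled for gene length and to an equal sum in each library, and the deposited FPKM values for gene length and depth. The deposited coverage signal is the mean number of reads per base of a gene, not scaled for depth. The authors' normalized counts (16601 genes) were whole reads in 100% of values after division by 1 step per library (tolerance 1e-06), and summed to 1683076 to 5025090 reads per library. Intervals cover replicate spread only. The authors' tables of fold changes and p-values were not used.

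Genes with at least 1 TPM in at least 3 libraries (17784 genes) were compared on log2(TPM + 1) with limma 3.58.1 (trended, robust) in a single fit to all 9 libraries. This pseudocount of 1 understates changes of low genes. P-values are two-sided and adjusted by Benjamini-Hochberg over all genes tested. P-values measure the spread between these pools, and which pools share an experiment is not given in the labels. The paper describes the RNA-seq data as coming from 3 independent experiments, without assigning libraries to them. Whether the replicate number marks the experiment is not stated. Single values were compared by exact permutation tests. Normalized counts of at least 10 in at least 3 libraries (7132 genes) were tested likewise, and recovered reads with edgeR 4.0.16 and DESeq2 1.42.0. The limma fit was tested on simulated data, whose results are not given here and are not used as support for any call. The correlation of deviations of same-numbered libraries was 0.218, 0.166 and 0.307 between FR and WF, all over 0.1, so block values are given there. Of unlike numbers, FR replicate 1 with WF replicate 2 was at 0.136, and FR replicate 2 with WF replicate 1 at 0.080. Replicates 1 and 2 were thus not clearly told apart by it. The pairing comes from the data, since the labels give numbers only. Between W and WF it was 0.0031, 0.208 and 0.270, and between the treatments -0.030, 0.093 and 0.174. Not all of these were over 0.1. Block values for those comparisons, the added call of *COL2* in W against FR included, are given without that ground.

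TMM factors moved the median of all genes by -0.12 (log2) for W over WF and by -0.15 for W over FR, so changes of that size are relative to the scaling. Median log2 fold changes over all genes were 0.11, -0.04 and 0.15 in the 3 comparisons.

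The members and all gene lists were chosen with earlier results of these data known. The text names all 8 members, *CCA1*, *LHY*, *TOC1*, *GI*, *FKF1*, *CO*, *FT* and AT1G69572, up to 3 genes per list with the smallest adjusted p, and the 2 genes most like each member. Other genes named where few were called were chosen after their values were seen. *CDF5* is AT1G69570, which the annotation does not name. Gene positions are those of RefSeq's TAIR10.1 assembly, and 36637 of 37363 genes had the same position in the files. Analyses used Python 3.11.15 and R 4.3.3.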

Additional observations from a re-analysis of the deposited data

Results flagged for a closer look

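The effects of the treatments, each taken against the same WF libraries, differed between W and FR for 6 members by the limma test of the difference itself. That test called 37.4% of all genes. The difference of the log2 fold changes, W minus FR, was 4.33 for *GRP7*, 1.70 for *GRP8*, 0.97 for *CDF5*, -0.64 for *CDF2*, -0.69 for *CDF3* and -0.997 for *CDF1*. On normalized counts this difference was 1.51 for *CDF1* (adjusted p = 0.000142, limma) and 0.42 for *CDF3*, with the sign turned for both. With replicate 3 alone in FR the difference was called for *CDF5* and for none of the others.

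The table of normalized counts, outside the main measurement, held signal for 2 genes that were listed at 0 TPM in every library. *COL1* reached 59.5 normalized counts, in replicate 1 of W, and was at 59.5, 36.1 and 47.9 in W and 35.2, 42.3 and 19.2 in FR, against 24.8, 24.9 and 37.3 in WF. Its groups overlapped in each comparison. AT1G69572, on the strand opposite *CDF5*, reached 383 normalized counts, in replicate 2 of FR, and was higher in all libraries of either treatment than in WF.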

How the results depend on the processing

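With the replicate block, 0 members were called in W against WF, 4 in FR against WF (0 without it) and 7 in W against FR (6 without it), the added one being *COL2* (adjusted p = 0.0443, limma). With the block, 12.8%, 8.25% and 42.2% of all genes were called in these comparisons, against 9.57%, 3.77% and 37.4% without it. Of 21 log2 fold changes of members, 16 kept their side of the threshold with the block and 5 gained it. In FR against WF, 1 member was called at a minimum of 5 TPM and 1 with TMM factors. Normalized counts called 2 there (background 3.28%), edgeR 2 (3.72%) and DESeq2 3 (4.32%). In W against WF, 1 was called in normalized counts (background 4.58%) and 1 with DESeq2 (4.63%). In W against FR, 3 were called with only the 2 groups compared. The share of all genes called was not taken at 5 TPM, with TMM factors or with only 2 groups, so those counts lack a background. Leaving out libraries gave 0 to 2 calls in W against WF, 0 to 6 in FR against WF and 1 to 7 between the treatments. The most calls came without replicate 3, where 29.1%, 17.3% and 45.5% of all genes were called. *CDF5* kept its call between the treatments under every alternative tried. None of these separated its reads from those of AT1G69572 on the opposite strand, which shares 59.9% of its exon bases. The test of replicate number called 0 members under all 8 alternatives.

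Normalized counts, edgeR and DESeq2, in that order, turned the sign of *CDF1* (-1.21, -1.21, -1.21), *CDF3* (-0.35, -0.34, -0.34) and *COL2* (-0.32, -0.34, -0.34) in FR against WF, and of *CDF1* (1.51, 1.49, 1.5), *CDF3* (0.42, 0.42, 0.43) and *COL2* (0.90, 0.91, 0.92) in W against FR. The cause was not tested. In W against WF, where the members lay near 0, they turned *GRP8* (-0.29, -0.29, -0.28) and *CDF3* (0.069, 0.081, 0.084). *GRP8* was also at -0.084 with TMM factors, ranged between -0.067 and 0.25 over the settings that left out libraries, and was at -0.020 to -0.049 without WF replicate 1 or 2 and -0.0058 to -0.067 without replicate 1 or 2 of all groups. *CDF1* ranged between -0.17 and 0.11 over those settings. It was at -0.0012 with a pseudocount of 5, -0.14 with TMM factors, -0.0019 in FPKM, -0.071 and -0.00075 without W replicate 1 or 2, -0.17 without WF replicate 3 and -0.097 without replicate 3. *CDF3* was at 0.040 without W replicate 3. Over all settings, 423 values kept direction and call, 32 gained a call, 42 lost one and 37 changed sign. With 3 libraries a group, *CDF2*, at 0 to 13.9 normalized counts, did not pass the filter on counts. The reads recovered from the counts were far fewer in each library than those the paper reports as mapped. The reason was not tested.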
